A study of Rattus norvegicus with 4 samples.

Results

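The guide strands of the miR-30 family are the 5p arms of miR-30a to miR-30e. They were taken by name from the deposited miRNA counts of rat costochondral chondrocytes and of the matrix vesicles (MVs) that these cells leave in their extracellular matrix. The 5 members are rno-miR-30a-5p, rno-miR-30b-5p, rno-miR-30c-5p, rno-miR-30d-5p and rno-miR-30e-5p, out of 740 miRNA names in the count table. They come from 6 of its 774 loci, since rno-miR-30c-5p has 2 genes. All 5 had reads in all 4 libraries.

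The cells were chondrocytes of the resting zone (RC-cells) and the more mature ones of the growth zone (GC-cells), and their vesicles are called RC-MVs and GC-MVs. Each group had 1 library, so no difference below has a replicate check and none was tested, and whether a library came from 1 culture or a pool is not stated. All cells were at passage 4, came from the rib cartilage of male Sprague Dawley rats and were grown to confluence in medium with ascorbic acid and fetal bovine serum, which per the study's methods had been freed of bovine exosomes by centrifugation, without any treatment that differed between groups. The vesicles were the fraction that trypsin released from the cell layer and that the last and fastest of a series of centrifugations brought down. The zones had been separated by dissection, and cells in serial culture can lose features of the cartilage they came from.

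MicroRNAs are cut from hairpin precursors that have a 5p and a 3p arm. Usually the strand of one arm, the guide, stays in an Argonaute protein and pairs with messenger RNAs through its seed, bases 2 to 8, while the other strand is degraded. The miR-30 family is made in many tissues from 3 pairs of neighbouring genes, and its guides share a seed. It is known from mesenchymal and bone-forming cells for targeting the osteogenic factor Runx2 and Smad1, which carries BMP signals.

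The mature sequences below show the shared seed in capitals and the 3′ part in which the guides differ. RefSeq sequences (GRCr8) matched 3 of the 5 members, and rno-miR-30b-5p and rno-miR-30d-5p were not matched.
rno-miR-30a-5p: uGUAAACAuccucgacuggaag
rno-miR-30e-5p: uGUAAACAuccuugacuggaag
rno-miR-30c-5p: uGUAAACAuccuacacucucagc

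In GRCr8 these strands lie at chr9:33233946-33233967 on the plus strand for rno-miR-30a-5p and at chr5:139637504-139637525 on the minus strand for rno-miR-30e-5p. The guide rno-miR-30c-5p has its copies at chr5:139634505-139634527, minus strand, and chr9:33253695-33253717, plus strand. The first 12 bases are the same in all 3. Counting from the 5′ end, rno-miR-30e-5p differs from rno-miR-30a-5p by the substitution C13U alone. A read that ends early or carries a sequencing error at that base could be counted for the wrong one, so the sum of both is also given. Over the 22 bases compared, rno-miR-30c-5p differs from rno-miR-30a-5p at 5 positions. The only other rat miRNA of the sequence table with this seed is rno-miR-384-5p, which had 13 reads in RC-cells, 20 in GC-cells and 0 in both vesicle libraries. Its 0 reads allow a share of up to 0.000271% in RC-MVs and 0.000305% in GC-MVs, above its share in the cells of the same zone, so that a loss from the vesicles was not detectable at this depth.

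By position in GRCr8, Mir30a and Mir30c2 lie on chromosome 9, Mir30e and Mir30c1 on chromosome 5 within the bounds of Nfyc, the gene of a subunit of the transcription factor NF-Y, and Mir30b and Mir30d on chromosome 7. The hairpins of Mir30c1 (chr5:139634455-139634543, minus strand) and Mir30c2 (chr9:33253682-33253765, plus strand) are shown because they give an identical guide and differ in the 3p strand. The 5p arm and then the 3p arm stand in capitals.
Mir30c1: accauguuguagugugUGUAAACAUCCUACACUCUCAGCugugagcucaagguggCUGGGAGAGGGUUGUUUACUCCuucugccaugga
Mir30c2: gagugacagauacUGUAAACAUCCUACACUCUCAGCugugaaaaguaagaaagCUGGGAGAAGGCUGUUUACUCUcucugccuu

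Library totals ran from 982543 to 7414467 miRNA reads, and 3 reads, the upper limit that a count of 0 allows, were between 4.05e-05% and 0.000305% of them. Levels are percents of all miRNA reads of a library, with Wilson intervals for shares and exact Clopper-Pearson intervals for ratios, both at the 95% level. They cover counting error only, and PCR copies were not told apart from separate molecules. The cartilage miRNAs miR-140 and miR-455, as 4 strands, were read in all libraries and with both strands of miR-675 made up between 0.526% and 1.00% of the reads, while miR-675-5p was at 0 reads in all 4. Markers of other cells differed between vesicles and cells. The liver and serum miRNA miR-122-5p made up at most 0.000491% of the reads in the cell libraries, 0.401% in RC-MVs and 1.14% in GC-MVs. The erythroid strands of miR-451 and miR-144, all 3 of those in the table, summed to at most 0.000162% in the cells, 0.0746% in RC-MVs and 0.159% in GC-MVs. The 4 leukocyte strands summed to at most 0.00114% in the cells and to 0.0141% and 0.0313% in the vesicles. The 2 endothelial strands of miR-126a summed to 0.0266% in RC-cells and 0.0158% in RC-MVs, but to 0.0223% in GC-cells and 0.0640% in GC-MVs. The 4 muscle miRNAs were at most 0.00733% and the 6 epithelial miRNAs at most 0.00183% of any library, with miR-141-3p at 0 reads throughout. What part these other sources have in the vesicle levels below was not tested.

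In the cells, the miR-30 guides were led by rno-miR-30a-5p and rno-miR-30d-5p. Together the 5 members held 1.79% of the miRNA reads in RC-cells (95% interval from 1.78% to 1.80%) and 1.83% in GC-cells (1.82% to 1.84%). In the vesicles they held 0.710% in RC-MVs (0.694% to 0.726%) and 0.801% in GC-MVs (0.784% to 0.819%). The cell libraries were nearly equal, and both vesicle libraries lay below them without overlap of the intervals. Because levels are shares, less of a guide in a library and more of other miRNAs cannot be told apart. In cultures and vesicle fractions read in bulk, fewer cells or vesicles that hold a guide and less of it in each cannot be told apart either.

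rno-miR-30a-5p was the most abundant member in every library. RC-cells and GC-cells held 51631 and 58227 of its reads, or 0.792% and 0.785% of their miRNA reads. RC-MVs and GC-MVs held 4444 and 3661, or 0.401% and 0.373%. Its rank among all miRNAs was 16 and 14 in the cells of the resting and the growth zone, and 32 and 30 in their vesicles. Both vesicle libraries thus lay at about the same low level and both cell libraries at about the same high level.

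rno-miR-30d-5p, the second in every library, had 37337 and 47566 reads in RC-cells and GC-cells and 1798 and 1964 in RC-MVs and GC-MVs. Its percents were 0.573, 0.642, 0.162 and 0.200 in this order. It was followed by rno-miR-30e-5p with 19628, 21210, 1329 and 1437 reads, and percents of 0.301, 0.286, 0.120 and 0.146. For both members the cell libraries were high and the vesicle libraries low in each zone.

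rno-miR-30c-5p was less abundant, with 6755 and 6642 reads in the cells of the resting and the growth zone and 198 and 364 in their vesicles. The percents were 0.104, 0.0896, 0.0179 and 0.0370, with RC-MVs lowest. Its rank was 64 among the miRNAs of RC-cells and 122 among those of RC-MVs.

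rno-miR-30b-5p was the least abundant member in 3 of the 4 libraries. Of its reads, RC-cells and GC-cells held 1495 and 1829, or 0.0229% and 0.0247% of their totals. RC-MVs and GC-MVs held 102 and 446, or 0.00920% and 0.0454%. GC-MVs were the highest library of this member and RC-MVs the lowest, and in GC-MVs it stood above rno-miR-30c-5p, with intervals from 0.0414% to 0.0498% and from 0.0334% to 0.0411% that did not overlap. The order of the other neighbours by percent was the same in all libraries, and their intervals did not overlap either.

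**Figure D1:**
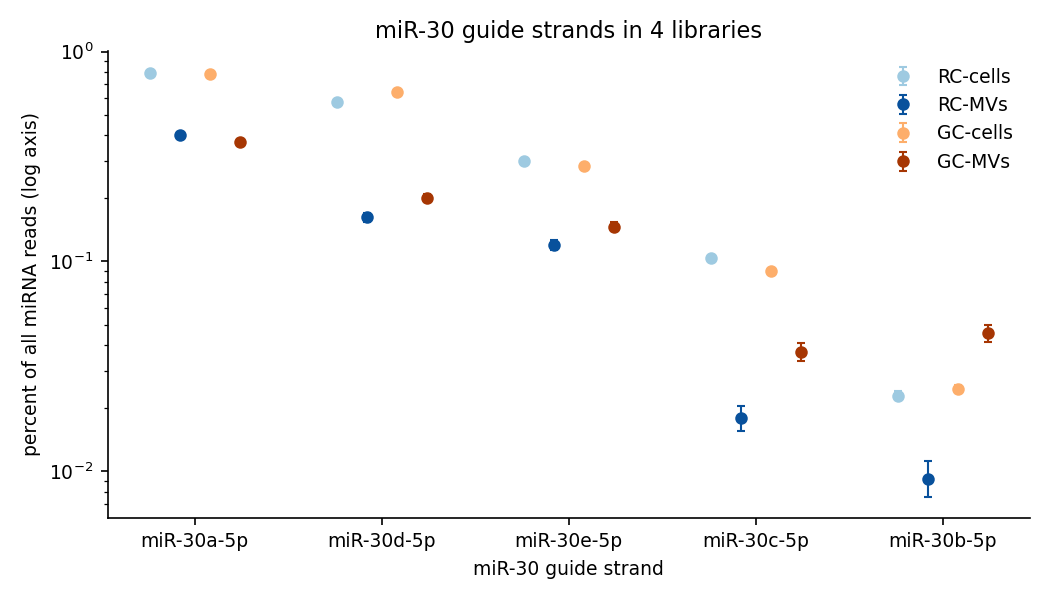
Percent of all miRNA reads (log axis) of the 5 miR-30 guide strands in the 4 libraries, with bars for the 95% Wilson interval of counting error. The cell libraries lie above the vesicle libraries of their zone for every member except miR-30b-5p, which is highest in GC-MVs with 0.0454%.

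The first comparison asks which guides the resting zone vesicles hold in another proportion than the cells that made them. All 5 members had a lower share in these vesicles. Relative to RC-cells, rno-miR-30c-5p was 5.80-fold lower (95% interval from 5.04 to 6.72), rno-miR-30d-5p 3.53-fold (3.37 to 3.71), rno-miR-30e-5p 2.51-fold (2.38 to 2.66), rno-miR-30b-5p 2.49-fold (2.04 to 3.08) and rno-miR-30a-5p 1.98-fold lower (1.92 to 2.04). Of the neighbours in this order, rno-miR-30e-5p and rno-miR-30b-5p overlapped in their intervals, and those of rno-miR-30b-5p and rno-miR-30a-5p met at 2.04. The family as a whole was 2.53-fold lower (2.47 to 2.58).

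At least 2-fold lower were 4 of the 5 members, against 30.4% of the 414 miRNAs with reads in both libraries. With the whole interval beyond 2-fold it was the same number of members against 19.8% of all miRNAs. The median log2 ratio was -1.33 over the members and 0.08 over all miRNAs. Among all miRNAs, 11.8% had a lower ratio than rno-miR-30c-5p and 30.4% a lower one than rno-miR-30a-5p, and the other members lay between them.

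In the growth zone, 4 of the 5 members had a lower share in the vesicles and rno-miR-30b-5p had a higher share. Relative to GC-cells, rno-miR-30d-5p was 3.21-fold lower in GC-MVs (95% interval from 3.07 to 3.36), rno-miR-30c-5p 2.42-fold (2.18 to 2.69), rno-miR-30a-5p 2.11-fold (2.04 to 2.18) and rno-miR-30e-5p 1.96-fold lower (1.85 to 2.06). The intervals of rno-miR-30c-5p and rno-miR-30a-5p, and of rno-miR-30a-5p and rno-miR-30e-5p, overlapped narrowly. The share of rno-miR-30b-5p was 1.84-fold higher (1.66 to 2.04), and under the other scalings it was between 1.58-fold and 1.97-fold higher. Among all 417 miRNAs with reads in both libraries, 64.0% had a lower ratio than rno-miR-30b-5p and the rest were at least as high.

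The family was 0.438 times its level in GC-cells (0.429 to 0.449). At least 2-fold lower were 3 of the 5 members, against 25.2% of 417 miRNAs, and with the whole interval beyond 2-fold 3 members against 15.1%. The median log2 ratio was -1.08 over the members and 0.13 over all miRNAs. As rno-miR-30a-5p in both zones and rno-miR-30e-5p in the growth zone lie close to 2-fold, their place on a side of this limit changes with the scaling. The sum of both, which does not depend on telling them apart at base 13, was 2.10-fold lower in the resting zone vesicles than in their cells (2.04 to 2.16) and 2.06-fold lower in those of the growth zone (2.01 to 2.12).

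**Figure D2:**
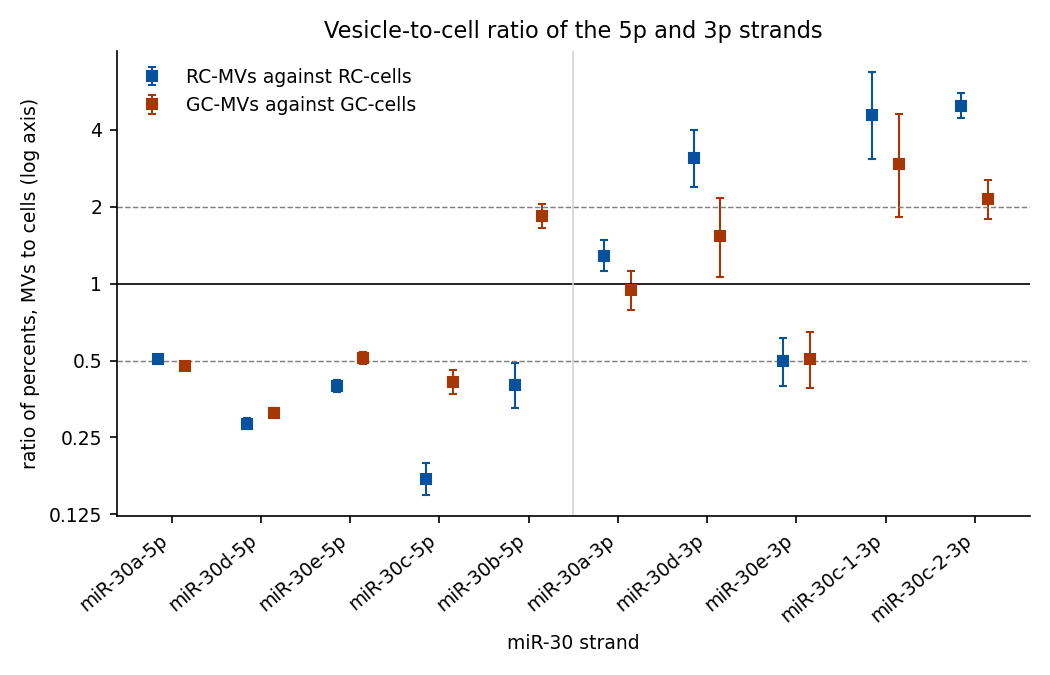
Ratio of the percent of miRNA reads in MVs to that in cells (log axis) for the 5p strands on the left and the 3p strands on the right, in the resting zone (blue) and the growth zone (brown), with exact 95% counting intervals and dashed lines at 2-fold. The 5p strands lie below 1 except miR-30b-5p in GC-MVs at 1.84, while the strands of miR-30c-1-3p and miR-30c-2-3p lie above 2 in both zones, with growth zone intervals that reach below it. miR-30b-3p is left out because it had 0 reads in both vesicle libraries.

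The growth zone ratio was therefore set against the resting zone ratio for each member. For rno-miR-30b-5p the vesicle-to-cell ratio was 4.59 times higher in the growth zone (95% counting interval from 3.65 to 5.81), and for rno-miR-30c-5p 2.40 times higher (2.01 to 2.88). For rno-miR-30e-5p it was 1.28 times higher (1.19 to 1.39), for rno-miR-30d-5p 1.10 times higher (1.03 to 1.18) and for rno-miR-30a-5p 0.938 times the resting zone value (0.896 to 0.982).

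The zones thus differed least in the 3 abundant members and most in the 2 rare ones. Under the other scalings these values ranged from 0.855 to 1.16 for rno-miR-30a-5p, from 1.00 to 1.37 for rno-miR-30d-5p and from 1.17 to 1.60 for rno-miR-30e-5p, against 2.19 to 2.98 for rno-miR-30c-5p and 4.18 to 5.70 for rno-miR-30b-5p. Which zone was higher for rno-miR-30a-5p depended on the scaling. Of the 262 miRNAs that reached 10 reads in every library, rno-miR-30b-5p ranked 4 by how far its log2 ratio in the growth zone exceeded that in the resting zone, with a difference of 2.20, and rno-miR-30c-5p ranked 18 with 1.26. These ranks do not depend on the scaling, while the median difference of 0.00 ran from -0.13 to 0.32 under the others. The vesicles of the resting zone lay below and those of the growth zone above their cells, as for rno-miR-30b-5p, in 20 miRNAs, or 7.63%, and in between 13 (4.96%) and 35 (13.4%) under the other scalings. GC-MVs also exceeded RC-MVs in miR-122-5p, at 1.14% against 0.401%, and in the erythroid strands, at 0.159% against 0.0746%. The leukocyte strands were at 0.0313% against 0.0141% and the endothelial strands at 0.0640% against 0.0158%. The muscle miRNAs were at 0.00733% against 0.00171%, from 72 and 19 reads. The epithelial ones were at 0.00183% against 0.000541%, from only 18 and 6 reads. The summed cartilage strands went the other way, at 0.841% against 1.00%, although miR-140-5p was at 0.0216% against 0.00848%. The part of other cell sources in the level of rno-miR-30b-5p was not tested.

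**Figure D3:**
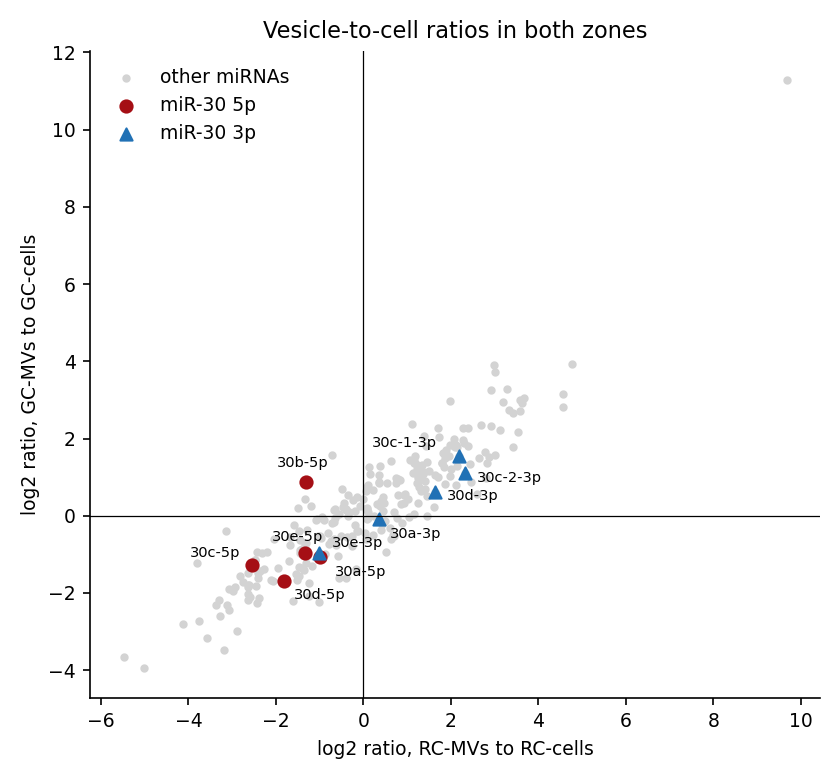
Log2 ratio of MVs to cells in the growth zone against that in the resting zone for the 262 miRNAs that reached 10 reads in each of the 4 libraries. The miR-30 5p strands (red) lie at the lower left, apart from miR-30b-5p at -1.32 and 0.88, and the miR-30 3p strands (blue triangles) reach from the lower left to 2.32 and 1.10 for miR-30c-2-3p.

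The next comparison is between the zones, whose libraries are the same ones as above. As percents of all miRNA reads, the members were at nearly the same level in the cells of both zones. The ratio of RC-cells to GC-cells was 1.01 for rno-miR-30a-5p (95% interval from 0.997 to 1.02), 0.930 for rno-miR-30b-5p (0.868 to 0.996), 1.16 for rno-miR-30c-5p (1.12 to 1.20), 0.893 for rno-miR-30d-5p (0.881 to 0.905) and 1.05 for rno-miR-30e-5p (1.03 to 1.07). None of the 5 differed by 2-fold, against 19.4% of 474 miRNAs. Of those, 70.7% were higher in RC-cells, and between 37.6% and 40.7% under the other scalings. Which zone is higher depends on the scaling, as the values of rno-miR-30a-5p, rno-miR-30c-5p and rno-miR-30e-5p fell to 0.800, 0.917 and 0.834 with TMM normalization. Farthest from 1 under the other scalings were rno-miR-30d-5p, between 0.697 and 0.716, and rno-miR-30b-5p, between 0.726 and 0.746.

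Between the vesicles the members differed more. The share of rno-miR-30b-5p in RC-MVs was 4.93-fold lower than that in GC-MVs (95% interval from 3.97 to 6.18) and that of rno-miR-30c-5p 2.07-fold lower (1.74 to 2.48). These are 2 of the 5 members, against 14.6% of 397 miRNAs at least 2-fold lower in RC-MVs, a share that rose to 31.0% with totals without the 3 abundant miRNAs miR-143-3p, miR-22-3p and miR-21-5p. Of the miRNAs 2-fold apart in either direction, 62.8% were higher in RC-MVs, and between 24.5% and 51.0% under the other scalings. With the whole interval beyond 2-fold, rno-miR-30b-5p remained, against 4.79% of all miRNAs. Only 2.27% of the miRNAs had a lower ratio than rno-miR-30b-5p. The other members were closer to each other, at 0.811 for rno-miR-30d-5p (0.761 to 0.865), 0.820 for rno-miR-30e-5p (0.760 to 0.884) and 1.08 for rno-miR-30a-5p (1.03 to 1.12). These ratios depend on the scaling, and that of rno-miR-30a-5p was 0.935 with TMM normalization, the other side of 1. With totals without those 3 miRNAs, all 5 were lower still, at 0.695 for rno-miR-30a-5p, 0.529 for rno-miR-30e-5p, 0.524 for rno-miR-30d-5p, 0.311 for rno-miR-30c-5p and 0.131 for rno-miR-30b-5p.

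A scaling moves all miRNAs of a comparison by the same amount, so the distance of the family from the median miRNA does not depend on it. On the log2 scale the family lay 1.42 below the median of all miRNAs in RC-MVs against RC-cells, where the family value was -1.34 and the median 0.08. In GC-MVs against GC-cells the family was at -1.19 and the median at 0.13. For RC-MVs against GC-MVs these values were -0.17 and 0.15, and for RC-cells against GC-cells -0.03 and 0.24.

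The shares of the members within the family are free of the scaling as well. rno-miR-30a-5p took 44.2% of the miR-30 5p reads of RC-cells (95% interval from 43.9% to 44.5%) against 56.5% of those of RC-MVs (55.4% to 57.6%). In the growth zone it took 43.0% in the cells (42.7% to 43.2%) and 46.5% in the vesicles (45.4% to 47.6%). rno-miR-30d-5p took 32.0%, 22.8%, 35.1% and 24.9% in the same order. In each zone, rno-miR-30a-5p had a larger part and rno-miR-30d-5p a smaller part of the family in the vesicles than in the cells, without overlap of the intervals.

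There were 1.38 reads of rno-miR-30a-5p for each read of rno-miR-30d-5p in the resting zone cells and 2.47 in their vesicles, and 1.22 and 1.86 in those of the growth zone. The share of rno-miR-30e-5p was 16.8% in the cells and 16.9% in the vesicles of the resting zone. In the growth zone it was 15.7% (15.5% to 15.9%) and 18.3% (17.4% to 19.1%), without overlap of the intervals. The share of rno-miR-30c-5p was 5.78% in the cells and 2.52% in the vesicles of the resting zone. Its growth zone shares were 4.90% and 4.62%, with overlapping intervals. rno-miR-30b-5p took 5.67% of the family in GC-MVs (5.18% to 6.20%) and between 1.28% and 1.35% in the other libraries.

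**Figure D4:**
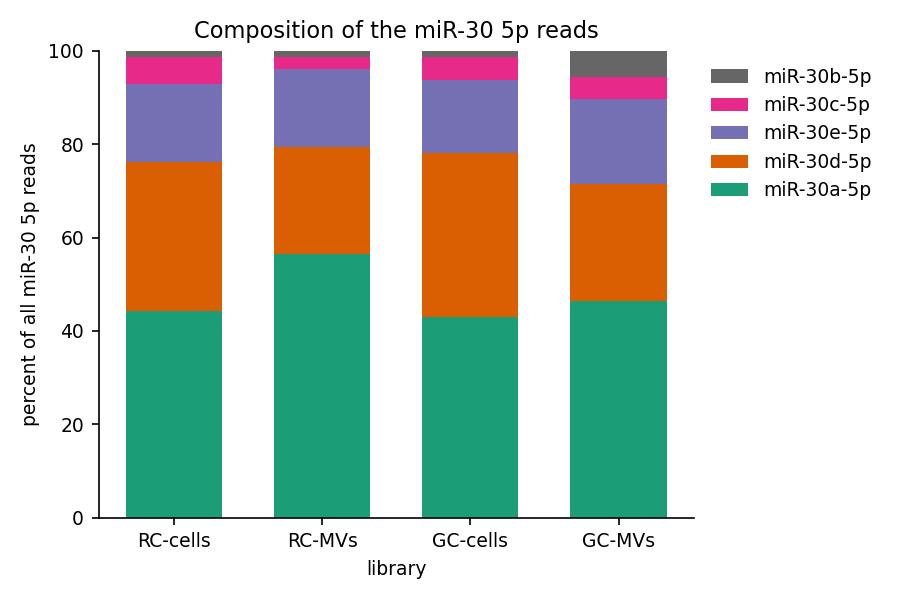
Stacked bars of the percent of all miR-30 5p reads that each of the 5 members took in each of the 4 libraries, based on between 7871 and 135474 reads per library. miR-30a-5p takes the largest part in every library, with 56.5% in RC-MVs, and miR-30b-5p is visibly larger in GC-MVs.

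The guides were also set against each other by neighbouring genes. Mir30b and Mir30d are neighbours, and rno-miR-30d-5p outnumbered rno-miR-30b-5p 25.0 to 1 in RC-cells and 26.0 to 1 in GC-cells. In RC-MVs the figure was 17.6 to 1 (14.4 to 21.7) and in GC-MVs 4.40 to 1 (3.97 to 4.89). For rno-miR-30a-5p and rno-miR-30c-5p, of which a part comes from its neighbour Mir30c2, the reads stood 7.64 to 1 in the cells and 22.4 to 1 in the vesicles of the resting zone, and 8.77 to 1 and 10.1 to 1 in those of the growth zone. Cells and vesicles thus differed in the proportion of miR-30d-5p to miR-30b-5p mainly in the growth zone, and in that of miR-30a-5p to miR-30c-5p mainly in the resting zone.

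The 2 genes of rno-miR-30c-5p had almost equal counts. Mir30c1 held 3379 and Mir30c2 3376 of its reads in RC-cells, and the pair held 3260 and 3382 in GC-cells. The vesicles had 101 and 97 in the resting zone, and 173 and 191 in the growth zone. The share of Mir30c1 lay between 47.5% and 51.0%, with 50% inside the interval in each library. Because the mature strand is identical, the counts do not tell from which gene a read came.

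The 3p strands with the same numbers are the strands usually degraded. In the cells the 5p strand made up between 90.2% and 99.7% of the reads of each number. rno-miR-30a-3p had 1154 and 1120 reads in RC-cells and GC-cells, and 253 and 140 in RC-MVs and GC-MVs. In this order rno-miR-30c-2-3p had 674, 596, 571 and 169 reads, rno-miR-30c-1-3p 63, 72, 49 and 28, rno-miR-30d-3p 184, 197, 97 and 40, and rno-miR-30e-3p 1114, 1011, 94 and 68. The counts of rno-miR-30c-2-3p in RC-MVs and RC-cells were thus close despite the smaller vesicle library. rno-miR-30b-3p had 4 reads in RC-cells, 15 in GC-cells and 0 in both vesicle libraries.

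The vesicles held the 3p strands in another proportion than the guides. In RC-MVs the share of rno-miR-30c-2-3p was 4.98-fold higher than in RC-cells (95% interval from 4.45 to 5.58), that of rno-miR-30c-1-3p 4.57-fold (3.08 to 6.75), that of rno-miR-30d-3p 3.10-fold (2.40 to 3.98) and that of rno-miR-30a-3p 1.29-fold higher (1.12 to 1.48). rno-miR-30e-3p was 2.02-fold lower (1.63 to 2.52). At least 2-fold higher were thus 3 of the 5 strands with reads in both libraries, against 33.6% of 414 miRNAs. In GC-MVs 2 of these 5 were, against 32.1% of 417 miRNAs, namely rno-miR-30c-1-3p with 2.93-fold (1.83 to 4.60) and rno-miR-30c-2-3p with 2.14-fold (1.79 to 2.54), and rno-miR-30e-3p was 0.508 times its level in GC-cells (0.391 to 0.649). With TMM normalization and size factors rno-miR-30c-2-3p was at 1.83 and 1.93, under 2-fold. With the whole interval above 2-fold there were 3 of 5 strands in RC-MVs, against 23.4% of all miRNAs, and 0 of 5 in GC-MVs, against 17.0%. For rno-miR-30d-3p the ratio was 1.53 (1.06 to 2.16) and for rno-miR-30a-3p 0.943 (0.786 to 1.13). Of the 5 strands with reads in the vesicles, rno-miR-30e-3p had ratios close to those of its guide.

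In miR-30c the guide made up less of the reads in the vesicles of both zones than in their cells, and in RC-MVs it was the minor strand. In the resting zone its guide made up 90.2% of its reads in the cells (95% interval from 89.5% to 90.8%) and 24.2% in the vesicles (21.4% to 27.3%). In the growth zone the shares were 90.9% (90.2% to 91.5%) and 64.9% (60.8% to 68.7%). In RC-MVs the 620 reads of its 3p strands therefore outnumbered the 198 of the guide, while in GC-MVs the 364 of the guide outnumbered 197. These shares do not depend on the scaling.

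For the other numbers the guide was the major strand in every library. For miR-30a it made up 97.8% and 98.1% in RC-cells and GC-cells, and 94.6% and 96.3% in their vesicles. In this order the values were 99.5%, 99.6%, 94.9% and 98.0% for miR-30d. For miR-30e they were 94.6%, 95.5%, 93.4% and 95.5%, with overlapping intervals between vesicles and cells in each zone. The 3p reads of miR-30b were too few for a comparison.

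**Figure D5:**
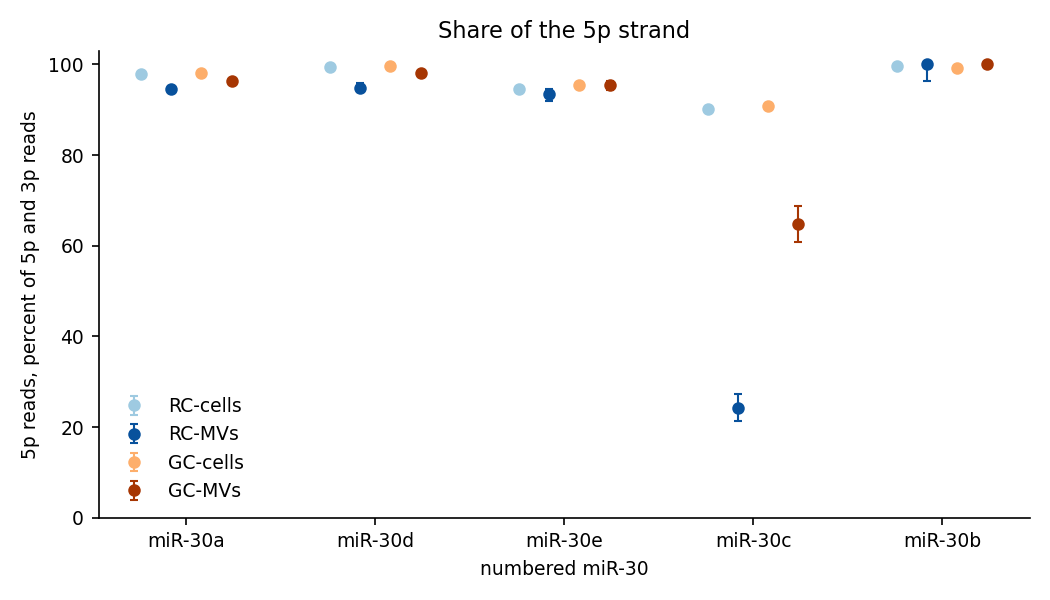
Percent of 5p reads among the 5p and 3p reads of each numbered miR-30 in the 4 libraries, with 95% Wilson intervals; both 3p strands of miR-30c are summed. All values lie above 90% except those of miR-30c in RC-MVs at 24.2% and in GC-MVs at 64.9%.

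Set among all precursors with at least 10 reads of both arms in both libraries, Mir30c2 and Mir30c1 shifted far toward the arm that is minor in the cells. In RC-MVs against RC-cells the ratio of 3p to 5p reads was 29.5-fold higher for Mir30c2 and 26.0-fold for Mir30c1, which ranked 4 and 5 of 90 precursors by this shift. On the log2 scale these were 4.88 and 4.70, while the median over the precursors was 0.84 and the 90th percentile 3.71. Mir30d followed at rank 14 with 3.45, Mir30a at rank 33 with 1.35 and Mir30e at rank 52 with 0.32. In GC-MVs against GC-cells, Mir30c1 ranked 8 of 78 with 2.87, Mir30c2 14 with 2.33, Mir30d 15 with 2.30, Mir30a 32 with 0.99 and Mir30e 50 with -0.01, beside a median of 0.49 and a 90th percentile of 2.77, so that Mir30c2 lay below the latter. The values of Mir30c1 and Mir30c2 rest on how reads of the shared guide were divided between them. The requirement of reads in the vesicle library removes precursors whose minor arm is low there, which affects the ranks.

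The 3 matched 3p strands do not have the miR-30 seed. The 3p strands whose share was higher in RC-MVs, with an interval above 1, are shown with their own seed in capitals, as far as the table holds them.
rno-miR-30c-1-3p: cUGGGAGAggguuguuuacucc
rno-miR-30c-2-3p: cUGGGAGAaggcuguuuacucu
rno-miR-30a-3p: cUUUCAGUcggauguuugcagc

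Both miR-30c strands share a seed, and counted from the 5′ end rno-miR-30c-2-3p differs from rno-miR-30c-1-3p by G9A, U12C and C22U. Their bases are 54.5% and 50.0% G or C, and those of rno-miR-30a-3p 50.0%. The guides have 45.5% for rno-miR-30a-5p, 43.5% for rno-miR-30c-5p and 40.9% for rno-miR-30e-5p, all under the median of 47.8% over the miRNAs. Across 265 miRNAs with a sequence and at least 10 reads in both libraries, GC content and the ratio of RC-MVs to RC-cells had a Spearman rho of 0.56. Across 251 miRNAs in the growth zone it was 0.51. These correlations are descriptions across miRNAs of the same pair of libraries, and the part of base composition in the miR-30 ratios was not tested.

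By the pattern of its levels over the 4 libraries, the family was most like miR-21-5p, the most abundant miRNA of the cells. Among 131 miRNAs with at least 100 reads in each library, likeness was measured as the root mean square difference of log2 percents, centred on their mean over the 4 libraries. The difference was 0.05 for miR-21-5p, 0.15 for let-7i-5p, 0.18 for miR-128-3p, 0.21 for miR-103-3p and 0.24 for miR-101b-3p. The vesicle-to-cell ratios of miR-21-5p were 0.403 for the resting and 0.427 for the growth zone, beside 0.396 and 0.438 for the family. Of the members themselves, rno-miR-30e-5p was nearest to the sum with 0.08 and rno-miR-30b-5p farthest with 0.92. With 4 libraries, such likeness is a description only.

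The sums of 3 other families with near-identical members, let-7, miR-26 and miR-29, were also lower in vesicles, to differing degrees. Not every such family was lower. The log2 ratios of miR-181a-5p to miR-181d-5p lay between 1.13 and 2.88 in the resting zone and between 1.10 and 1.78 in the growth zone. The 9 guides of the let-7 family with miR-98-5p were 1.88-fold lower in the vesicles than in the cells of the resting zone (95% interval from 1.86 to 1.89) and 2.10-fold lower in those of the growth zone (2.08 to 2.12). These are sums, and single members went both ways, as let-7f-5p had log2 ratios of -3.19 and -3.48 and let-7b-5p of 1.36 and 1.09 in the resting and the growth zone. In addition let-7c-5p was above 0 in the resting zone, at 0.49, and let-7d-5p in the growth zone, at 0.18. Both miR-26 guides together were 10.1-fold (9.47 to 10.7) and 4.69-fold lower (4.46 to 4.93). The miR-29 strands were 2.91-fold (2.77 to 3.05) and 1.14-fold lower (1.10 to 1.18), over 4 names of which miR-29b and miR-29c carry no arm. This sum followed miR-29a-3p, with log2 ratios of -1.60 and -0.23, while miR-29b-3p was at 0.14 and 1.09 and the entry miR-29b at 0.10 and 0.80. In both zones the miR-30 sum, 2.53-fold and 2.28-fold lower, lay between let-7 and miR-26, and its interval overlapped with none of the 3 others.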

How the data were processed

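Small RNA of the cells and vesicles of both zones was sequenced on an Illumina HiSeq instrument, with 1 library per group. The authors checked reads with FASTQC, aligned them with Bowtie2 to the rat genome Rnor_6.0 and tabulated miRNAs with miARma-Seq, and the deposited values are raw read counts in whole numbers, given for each locus of a miRNA. Not given in the sources used here are tool versions, read trimming and how a read matching both genes of miR-30c-5p was counted.

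The counts of loci with an equal mature name were summed, and each sum was written as a percent of the library's miRNA total, the normalization that the authors used. Differences were ratios of percents with intervals at the 95% level, and a miRNA needed 1 read on either side to be held against the limit of 2-fold. Groups had 1 library, so no test was run. The ratio of ratios between zones has the exact interval of a conditional odds ratio. Both the 2-fold calls and their intervals were first tested on simulated data.

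The alternatives were TMM normalization, size factors, totals that leave out miR-143-3p, miR-22-3p and miR-21-5p, the locus with more reads only, a minimum of 10 reads, the whole interval beyond 2-fold, and the sum without rno-miR-30a-5p. The miRNAs named are the 5 members, the 3p arms with their numbers, miRNAs with the same seed, the 5 most alike in pattern, and sums of the let-7, miR-26 and miR-29 families. The miR-181 guides were added as a family with the opposite direction. Lists of cartilage, erythroid, leukocyte, endothelial, liver and serum, muscle and epithelial miRNAs were checked in each library. Members and lists were chosen with earlier results of these data known. RefSeq tables of the GRCr8 assembly gave sequences for 660 of the 740 names, and gene order. Coordinates are those of GRCr8 and were not used with the counts. The PCR array was not used here. TMM factors came from edgeR 4.0.16 and size factors from DESeq2 1.42.0 under R 4.3.3. The other steps ran in Python 3.11.15, with scipy 1.17.1 for intervals, pandas 2.3.3 and numpy 2.4.6 for tables, and matplotlib 3.10.9 for plots.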

Additional observations from a re-analysis of the deposited data

Results flagged for a closer look

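The strands rno-miR-30b-5p and rno-miR-30a-3p went in opposite directions from cells to vesicles in the 2 zones. For rno-miR-30b-5p the ratio of vesicles to cells was 0.401 for the resting and 1.84 for the growth zone, and for rno-miR-30a-3p it was 1.29 and 0.943. The counting interval of the growth zone value of rno-miR-30a-3p, from 0.786 to 1.13, includes 1, and with totals without the 3 abundant miRNAs this value was 1.01 and its direction the same as in the resting zone. With 1 library per group these differences between zones were not tested.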

How the results depend on the processing

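Each group had 1 library, and neither a paired analysis nor any other test was run. The family stayed lower in the vesicles of both zones under each alternative. For RC-MVs against RC-cells its ratio of 0.396 became 0.372 with TMM normalization, 0.385 with size factors, 0.342 with totals without the 3 abundant miRNAs and 0.309 without rno-miR-30a-5p. For GC-MVs against GC-cells, 0.438 became 0.375, 0.396, 0.471 and 0.411 in the same order. For RC-MVs against GC-MVs, 0.886 became 0.770, 0.746, 0.572 and 0.721, and for RC-cells against GC-cells, 0.981 became 0.778, 0.766, 0.787 and 0.960. The scalings moved the median log2 ratio of all miRNAs by between -0.63 and 0.10, and the family by the same amounts, so these shifts follow from the scaling itself. Counting only the locus with more reads kept the 4 family ratios and all 20 member ratios within their counting intervals. Only rno-miR-30c-5p has more than 1 locus, so for the other members this setting changed the library totals alone and could move little. The number of members at least 2-fold apart between RC-MVs and GC-MVs was 2, and 1 with the whole interval beyond 2-fold. It was 5 in place of 4 for RC-MVs against RC-cells under each of the 3 other scalings, and between 2 and 4 in place of 3 for GC-MVs against GC-cells. The share of all miRNAs at least 2-fold lower went from 30.4% to between 31.6% and 33.6% in the resting zone. In the growth zone it went from 25.2% to between 23.0% and 29.3%. A minimum of 10 reads changed no count of members, while this share was then 28.3% in the resting and 22.2% in the growth zone. Of the 80 member ratios under 4 scalings or locus rules, 43 left their counting interval. Among the guides, depth limits rno-miR-30b-5p most, with 102 reads in RC-MVs.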
